A study of Mus musculus with 12 samples.

Results

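A set of 55 genes of mouse chromosome 4 was followed through 12 mammary tumours of the mMTV-Cre/HER2 Crainbow mouse on the FVBN background, in which Cre driven by the mouse mammary tumour virus promoter switches on human HER2 in mammary epithelium. The 55 genes are all the listed members, out of 24421 genes in each table, and they were picked because chromosome 4 genes had lower RNA in the epithelial cells of some of these tumours. The 5 p95 tumours (a truncated form of HER2, nulliparous mice) and the 3 d16 tumours (a splice form of HER2, nulliparous mice) are labelled by their HER2 form, and the 4 multiparous tumours have the genotype unknown. All tumours were untreated and came from mice of 15 to 21 weeks. The labels call 7 tumours metaplastic (5 p95, and d16 tumours 2 and 3) and 2 mixed (multiparous tumours 1 and 3). D16 tumour 1 and the multiparous tumours numbered 2 and 4 are called solid nodular. Single cells were captured on a ddSEQ instrument and their 3′ ends sequenced, and the values are counts of unique molecular identifiers (UMIs), each standing for 1 captured RNA molecule. The labels do not say whether tumours came from separate mice, so p-values measure the spread between tumours. In 2 pairs, p95 tumour 2 with d16 tumour 2 and p95 tumour 4 with d16 tumour 3, the titles share a number, and such tumours may come from 1 mouse.

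Chromosome 4 of the mouse carries genes used in nearly every cell, and tumour cells often lose or gain whole chromosomes or arms. A lost copy is commonly accompanied by less RNA of the genes it carries, but RNA also varies with cell state. DNA was not measured here, so the values below are RNA levels and no copy number is given. White blood cells (positive for Ptprc, the gene of the CD45 surface protein) and fibroblasts of the same tumour are usually not part of the tumour clone and shared every step of capture and sequencing with the epithelial cells, which makes them the reference within a tumour.

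Epithelial cells had 2 or more UMIs of Epcam, Krt8 and Krt18 together and none of Ptprc. There were 3631 of them among 7366 cells kept, beside 952 Ptprc-positive cells and 974 fibroblast-type cells (5 or more UMIs of Col1a1, Col1a2 and Col3a1 together, none of Ptprc or of the 3 epithelial genes). Tables held 140348 to 4394398 UMIs, and p95 tumour 1 and d16 tumour 1 were the shallowest, with a median of 470 and 530 UMIs per epithelial cell against 1329 to 5489 in the others. All 12 genes of the immune marker list, 1 of them on chromosome 4, had UMIs in Ptprc-positive cells, where they summed to 7036 to 22850 CPM (UMIs scaled to a total of 1000000 per population), against 301 to 1586 CPM in epithelial cells. The 8 further epithelial markers summed to 2178 to 20490 CPM in epithelial cells and to 217 to 2378 CPM in Ptprc-positive cells. Ptprc-positive cells of both shallow tumours stood apart. In d16 tumour 1 the immune list was at its lowest there (7036 CPM), the epithelial list was at 1474 CPM, and 8 of the 20 cells had 2 or more epithelial marker UMIs. In p95 tumour 1 the epithelial list was higher still in Ptprc-positive cells, at 2378 CPM, with 6 of 15 cells at 2 or more such UMIs, while the immune list was at 14270 CPM. At most 3 cell barcodes were shared by any 2 tables.

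On GRCm38 the genes run from Lyn (chromosome 4, 3678115 to 3813122), which encodes a Src-family kinase of blood cells, to Sdf4 (chromosome 4, 155992872 to 156013610), which encodes a calcium-binding protein of the Golgi. Of the 55, 13 lie in the proximal stretch of the chromosome, 8 in the middle and 34 in the distal stretch, of 3 about equal stretches. Sorted by role, 12 act in metabolism, redox balance and mitochondria, 9 in chromatin and RNA handling, 9 in the cytoskeleton, traffic and matrix, 8 in signalling, 7 in protein quality control, 6 in the cell cycle and DNA, and 4 are transcription factors. In kept cells 54 had a UMI, 7 had over 10000 and 5 had fewer than 100. Eno1, the glycolytic enolase, was listed at 0 in every table, while its near-identical copy Eno1b held 2946 UMIs in all 12 tumours, so the counts of this pair are uncertain. Plag1, an oncogenic zinc finger factor, had 2 UMIs in all.

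The 3 members with the most UMIs were Tnc, which encodes the matrix glycoprotein tenascin C (30485 UMIs), Prdx1, a peroxide-reducing enzyme (18088 UMIs), and Txn1, thioredoxin (16825 UMIs). Their promoter windows, from 250 bases before to 50 after the start of the transcript, are printed 5′ to 3′ from RefSeq on GRCm38.p6 because these genes had the most UMIs of the 55 over all kept cells, though not in every tumour. Capitals mark each match, on either strand, to the GC box GGGCGG, the CCAAT box CCAAT, the TATA box TATAAA or the core of the antioxidant response element TGACNNNGC.
Tnc, chr4:64046966-64047265, minus strand: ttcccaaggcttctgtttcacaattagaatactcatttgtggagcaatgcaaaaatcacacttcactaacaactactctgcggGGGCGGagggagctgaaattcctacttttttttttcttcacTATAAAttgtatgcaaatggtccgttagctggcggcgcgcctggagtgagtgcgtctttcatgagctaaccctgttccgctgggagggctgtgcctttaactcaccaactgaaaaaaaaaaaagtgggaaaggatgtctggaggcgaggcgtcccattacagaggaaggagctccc
Prdx1, chr4:116685349-116685648, plus strand: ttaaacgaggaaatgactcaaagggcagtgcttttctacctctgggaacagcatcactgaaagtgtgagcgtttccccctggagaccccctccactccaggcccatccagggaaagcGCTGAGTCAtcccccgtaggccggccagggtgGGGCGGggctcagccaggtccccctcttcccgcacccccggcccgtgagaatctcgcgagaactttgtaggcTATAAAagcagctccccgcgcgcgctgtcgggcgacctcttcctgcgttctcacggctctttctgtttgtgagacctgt
Txn1, chr4:57956362-57956661, minus strand: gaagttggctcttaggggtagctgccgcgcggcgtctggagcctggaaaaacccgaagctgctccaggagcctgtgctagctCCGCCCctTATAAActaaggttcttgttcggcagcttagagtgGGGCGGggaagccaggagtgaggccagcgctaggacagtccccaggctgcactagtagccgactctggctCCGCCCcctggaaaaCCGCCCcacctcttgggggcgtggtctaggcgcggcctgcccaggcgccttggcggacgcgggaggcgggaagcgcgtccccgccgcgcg
Each of the 3 windows held a match to the TATA box and to the GC box. Txn1 held 4 GC box matches, and the Prdx1 window held the antioxidant response element core. The TATA box match began at base 125 of the window in Tnc, 91 in Txn1 and 222 in Prdx1, with 250 bases before the transcript start. No match overlapped another. Of the 55 genes, 44 had an entry in the promoter table. The first entry held a GC box in 30, a CCAAT box in 16, a TATA box in 5 and the antioxidant core in 7, and over the first entries of 26794 genes these motifs stood in 36.2%, 38.1%, 14.2% and 12.5%.

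In 3 tumours the 55 genes made up a share of epithelial RNA that was 0.446- to 0.545-fold their share in Ptprc-positive cells. These values chose the members and are a description. Pooled over the 55 genes, the share of all UMIs in epithelial cells was 0.582% in d16 tumour 2, 0.537% in multiparous tumour 2 and 0.642% in multiparous tumour 4. In Ptprc-positive cells of the same tumours it was 1.10%, 0.985% and 1.44%. The epithelial share was thus 0.528-fold (exact 95% interval 0.501 to 0.557), 0.545-fold (0.523 to 0.569) and 0.446-fold (0.417 to 0.477) that of Ptprc-positive cells. The intervals here cover counting error only.

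The other tumours did not show ratios this low. In p95 tumours 3, 4 and 5 the epithelial share was 1.31, 1.24 and 1.35%, and 1.16-, 1.06- and 1.22-fold that of Ptprc-positive cells. In d16 tumour 3 and multiparous tumours 1 and 3 it was 1.20, 1.13 and 1.25%, and 1.16-, 1.02- and 1.08-fold that of Ptprc-positive cells. In p95 tumour 2 the share was 1.06% and 0.882-fold. The 2 shallow tumours lay lower: p95 tumour 1 had 0.803% and 0.790-fold (0.645 to 0.972), and d16 tumour 1 had 0.504% and 0.791-fold (0.639 to 0.991). In d16 tumour 1 the epithelial share was the lowest of all 12, and the Ptprc-positive share, 0.637%, was the lowest too, in the cells whose immune markers were described above. Single genes weighed on the pooled shares. In p95 tumour 3, Tnc gave 1934 of the 15982 epithelial UMIs of the 55 genes and 1 of the 1330 Ptprc-positive ones. In multiparous tumour 4, Prdx1 gave 382 of 3669 and 238 of 1113.

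**Figure D1:**
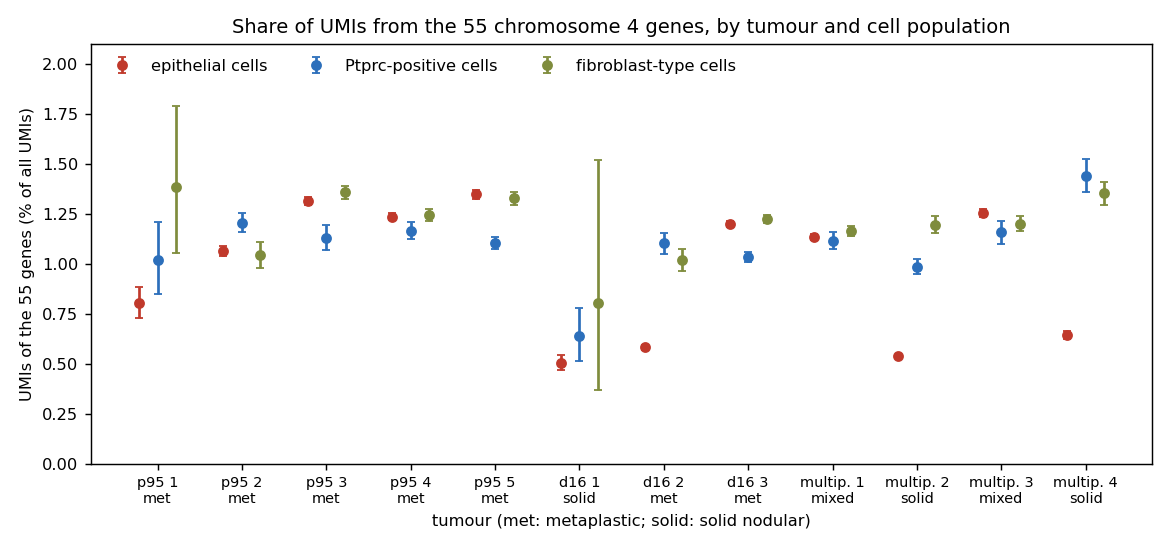
Share of all UMIs that came from the 55 genes (y axis, percent) in epithelial, Ptprc-positive and fibroblast-type cells of each tumour (x axis), with exact 95% intervals for counting error. Epithelial cells lie at 0.582% in d16 tumour 2, 0.537% in multiparous tumour 2 and 0.642% in multiparous tumour 4, below both other populations of the same tumour.

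Fibroblast-type cells gave a second reference. Their share from the 55 genes was 1.02% in d16 tumour 2, 1.19% in multiparous tumour 2 and 1.35% in multiparous tumour 4. It was 1.04 to 1.39% in the other tumours except d16 tumour 1, where 3 such cells gave 0.802%. The 1.39% came from 7 cells of p95 tumour 1, with 58 UMIs of the 55 genes. Against fibroblast-type cells the epithelial share was 0.572-fold (0.540 to 0.605), 0.450-fold (0.433 to 0.468) and 0.475-fold (0.450 to 0.501) in these 3 tumours. It was 0.967- to 1.04-fold in the 7 others with at least 20 such cells. In p95 tumour 1, with 7 such cells, it was 0.58-fold (0.44 to 0.776), and in d16 tumour 1, with 3, 0.628-fold (0.329 to 1.379). The members were picked for low values in epithelial cells, so these ratios are a description too. Fibroblast-type and Ptprc-positive cells of the 3 tumours did not differ in the same way: the median member lay 0.08 (log2) below the median gene in d16 tumour 2, 0.06 above it in multiparous tumour 2 and 0.11 below it in multiparous tumour 4. Across 10 tumours, fitted with edgeR and the tumour as a block, 16 of 40 members tested were lower and 12 higher in fibroblast-type than in Ptprc-positive cells (adjusted p under 0.05), beside 28.2% and 30.0% of all 3991 genes. In epithelial against Ptprc-positive cells of 11 tumours, a fit given only as a description because that contrast chose the members, 16 of 43 were lower and 7 higher, beside 21.5% and 25.1% of all genes. A like description of epithelial against fibroblast-type cells in 10 tumours gave 14 of 46 lower and 9 higher, beside 24.2% and 26.2%. From Ptprc-positive to fibroblast-type cells Prdx1 fell by 1.56 ± 0.23 (log2, SE) and Lyn by 3.99 ± 0.25, while Tnc rose by 4.79 ± 0.59 and Hspg2, which encodes the basement membrane protein perlecan, by 4.27 ± 0.48.

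Single cells showed how the level was spread. Each cell was thinned at random to 1000 UMIs, and shallower cells were left out. The median epithelial cell then held 5 UMIs of the 55 genes in d16 tumour 2 (quartiles 3 and 7, 412 cells, 225 left out), 5 in multiparous tumour 2 (4 and 8, 531 cells, 0 left out) and 6 in multiparous tumour 4 (5 and 7.75, 130 cells, 57 left out). Ptprc-positive cells of the same tumours held a median of 11, 11 and 13 UMIs, in 53, 73 and 20 cells. The upper quartile of epithelial cells, at 7 UMIs in d16 tumour 2 and 7.75 in multiparous tumour 4, lay under the lower quartile of Ptprc-positive cells, at 8 and 10.75, while in multiparous tumour 2 the quartiles crossed (8 and 7). In the p95 tumours, d16 tumour 3 and multiparous tumours 1 and 3, epithelial medians were 9 to 12 UMIs and Ptprc-positive medians 8.5 to 12.5. In d16 tumour 1 the medians were 5 UMIs in 38 epithelial cells and 4 UMIs in 4 Ptprc-positive cells. Without thinning, the median epithelial cell had 0.522, 0.504 and 0.609% of its UMIs from the 55 genes in the 3 tumours, against 0.954, 1.06 and 1.498% in Ptprc-positive cells.

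**Figure D2:**
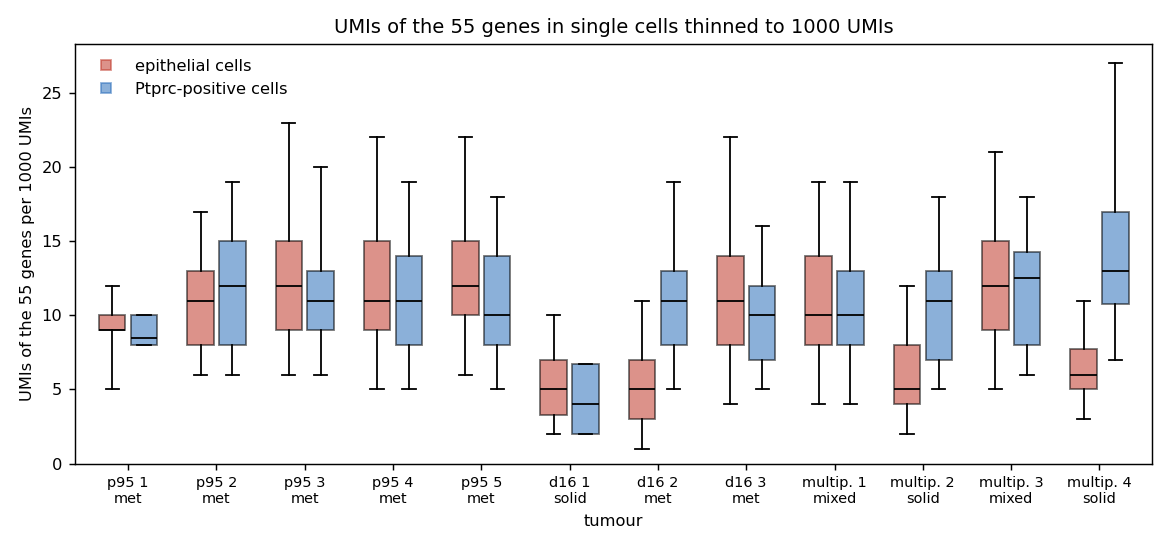
UMIs of the 55 genes per cell (y axis) after thinning each cell to 1000 UMIs, for epithelial and Ptprc-positive cells of each tumour (x axis). Boxes are quartiles with the median and whiskers span the 5th to 95th percentile of cells. The epithelial medians are 5, 5, 5 and 6 in d16 tumours 1 and 2 and multiparous tumours 2 and 4, and 9 to 12 elsewhere.

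The limit of 2 epithelial marker UMIs set who counts as epithelial. Cells with exactly 2 such UMIs had a member share of 0.514% in d16 tumour 2 (55 cells) and 0.536% in multiparous tumour 4 (24 cells), and those with 1 had 0.774% (67 cells) and 1.01% (28 cells). In multiparous tumour 2 cells just inside and just outside the limit were alike and high, at 1.11% (29 cells) and 1.04% (42 cells). Cells with no epithelial marker UMI and no Ptprc had 1.11, 1.27 and 1.21% in d16 tumour 2, multiparous tumour 4 and multiparous tumour 2.

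Gene by gene, the pattern was spread over many members. The epithelial to Ptprc-positive log2 ratio of each gene with 10 or more UMIs in the 2 populations was set against the median gene of the same tumour. In d16 tumour 2, 38 of 48 measured members lay below the median gene and 30 lay at least 2-fold below it, beside 23.1% of all genes measured. In multiparous tumour 2 the counts were 42 and 24 of 52, beside 18.6%, and in multiparous tumour 4 they were 36 and 26 of 43, beside 22.3%. These counts follow from the choice of members. Of the shallow tumours, p95 tumour 1 had 5 of 17 at least 2-fold below, beside 18.6%, and d16 tumour 1 had 8 of 27, beside 17.7%. In p95 tumours 2 to 5 the counts were 5 of 45, 10 of 50, 6 of 49 and 6 of 50, beside 18.3, 22.3, 18.7 and 18.5%. In d16 tumour 3 and multiparous tumours 1 and 3 they were 11 of 51, 5 of 50 and 10 of 50, beside 19.5, 18.0 and 21.3%. The member medians were -1.13, -0.87 and -1.34 in the 3 tumours and -0.36 to -0.04 in the others.

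**Figure D3:**
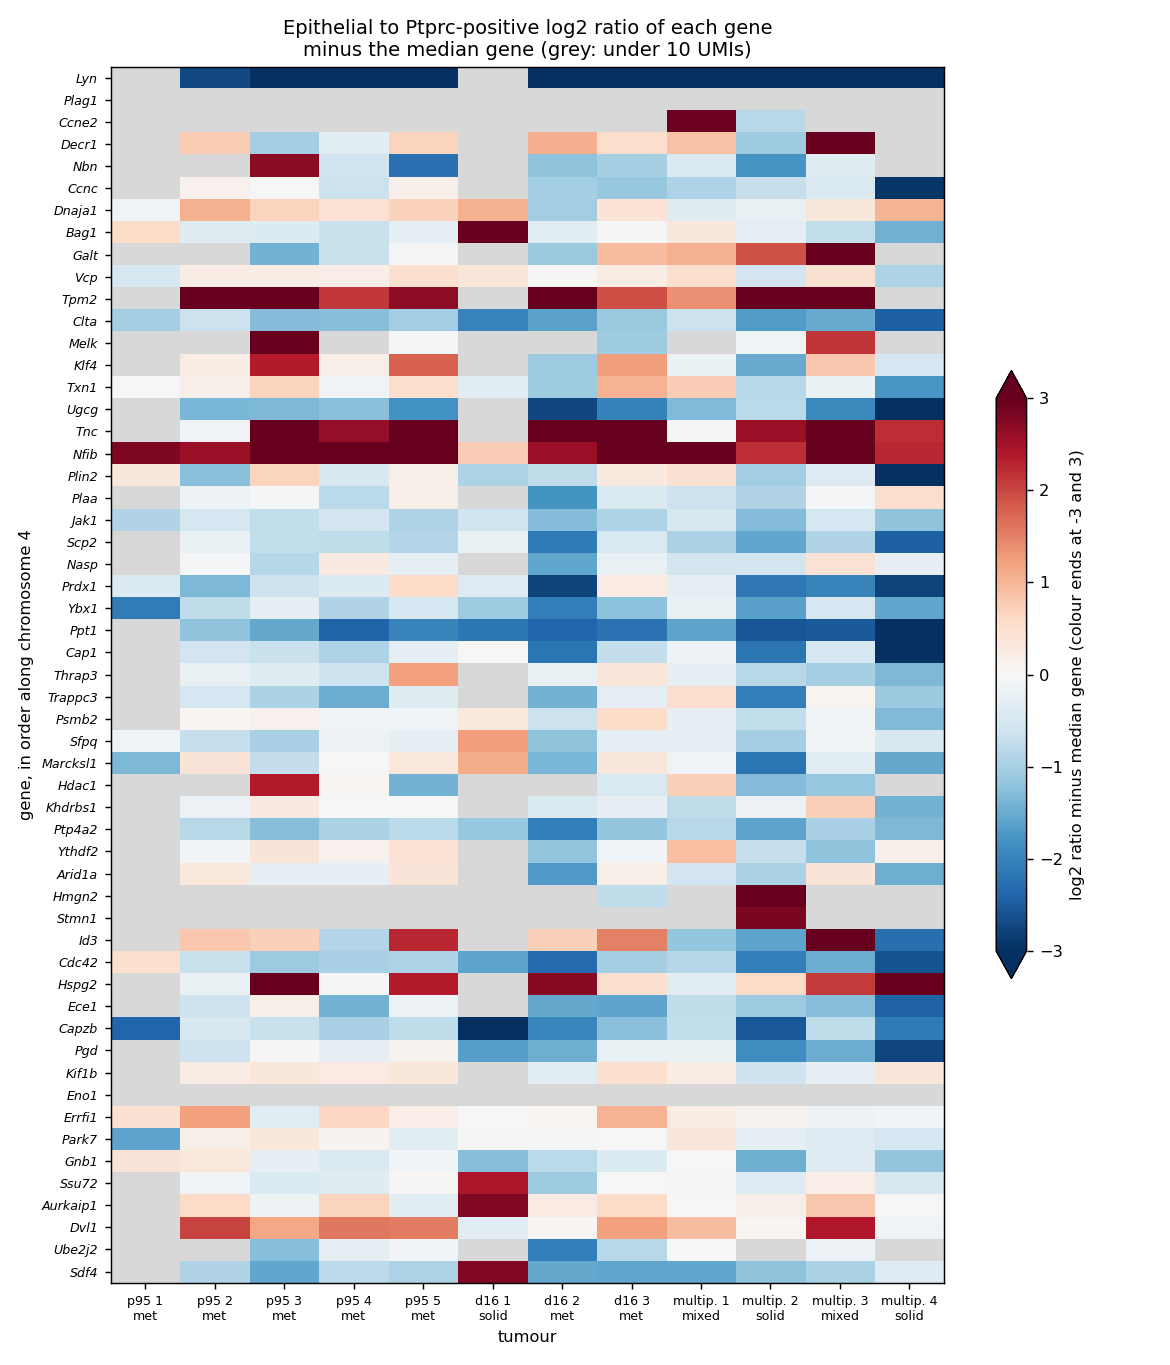
Epithelial to Ptprc-positive log2 ratio of each of the 55 genes minus the median gene of the tumour (colour), with genes in order along chromosome 4 (y axis) and tumours on the x axis. Grey marks a gene with under 10 UMIs in a tumour. The columns of d16 tumour 2, multiparous tumour 2 and multiparous tumour 4 are blue over most of the chromosome, while Tpm2, Tnc and Nfib are red in nearly every tumour measured.

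The ends of the order by median ratio were as follows. Lyn had the lowest median over tumours, -3.78, and lay below the median gene in 10 of 10 tumours. Ppt1, a lysosomal thioesterase, had a median of -2.22 and Ugcg, which makes glucosylceramide, a median of -1.59. Clta, a clathrin light chain, had -1.29 and was below in 12 of 12, and Ece1, which activates endothelin, had -1.18 and was below in 9 of 10. At the other end stood Tpm2, a tropomyosin of contractile cells, with a median of 3.91, and Nfib, a transcription factor of epithelial and mesenchymal lineages, with 3.09. Tnc had 2.85, Stmn1, a microtubule regulator measured in 1 tumour, 2.82, and Hspg2 1.33. The Tpm2 median came from multiparous tumour 2, with 34 epithelial and 0 Ptprc-positive UMIs, and the Stmn1 value from 15 and 0 there. Such genes passed the limit of 10 UMIs through epithelial cells alone. The size of their ratio depended on the UMI added to each count and on the depth of the Ptprc-positive cells. Hspg2 lay below the median gene in 3 of 10 tumours and Tnc in 2 of 10. The members were thus not a uniformly low group.

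Between these ends, the tumours set members apart. Cdc42, a small GTPase that orders actin and polarity, stood at -2.32 in d16 tumour 2, -2.05 in multiparous tumour 2 and -2.62 in multiparous tumour 4, and at -1.59 to 0.48 in the other 9. Cap1, which recycles actin, stood at -2.18, -2.18 and -3.18 in the same order, and at -0.92 to 0.004 elsewhere. Marcksl1, a membrane-bound actin regulator, stood at -1.38, -2.19 and -1.55, and at -1.34 to 1.11 elsewhere. Each of the 3 genes had its lowest ratios in these 3 tumours. Cap1 and, in what follows, Aurkaip1 and Capzb were singled out after their values were seen. Of the 45 members measured in at least 9 tumours, 18 had their lowest ratio in multiparous tumour 4, 9 in d16 tumour 2 and 6 in multiparous tumour 2. Of 7256 genes of other chromosomes, 16.2%, 12.3% and 9.67% had theirs there, and of 409 other genes of chromosome 4, 24.9%, 18.3% and 17.1%. The members were picked on this contrast in these tumours, so these ratios and counts are a description. Errfi1, a feedback inhibitor of the EGF receptor family, did not follow, at 0.05, 0.10 and -0.08 in the 3 tumours, and neither did Aurkaip1, a mitochondrial protein, at 0.24, 0.17 and -0.01.

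Genes of chromosome 4 outside the list were lower in the same tumours, by less. Their median stood 0.45 below the median gene in d16 tumour 2 (522 genes), 0.37 below in multiparous tumour 2 (612 genes) and 0.48 below in multiparous tumour 4 (343 genes). Chromosome 4 was the lowest of 20 chromosomes in each, and the next lowest stood at -0.12, -0.07 and -0.21. In d16 tumour 1 it was the 2nd lowest, at -0.22 beside -0.24 for chromosome 19. In the 8 remaining tumours it stood from -0.14 to 0.17. As a share of UMIs, the other chromosome 4 genes were 0.692-, 0.608- and 0.685-fold in the 3 tumours, and 0.780- to 1.11-fold in the other 9. Chromosome 4 and the list were both picked on this contrast. The rank of the chromosome and these medians are therefore a description, and the list's larger difference is not a finding.

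**Figure D4:**
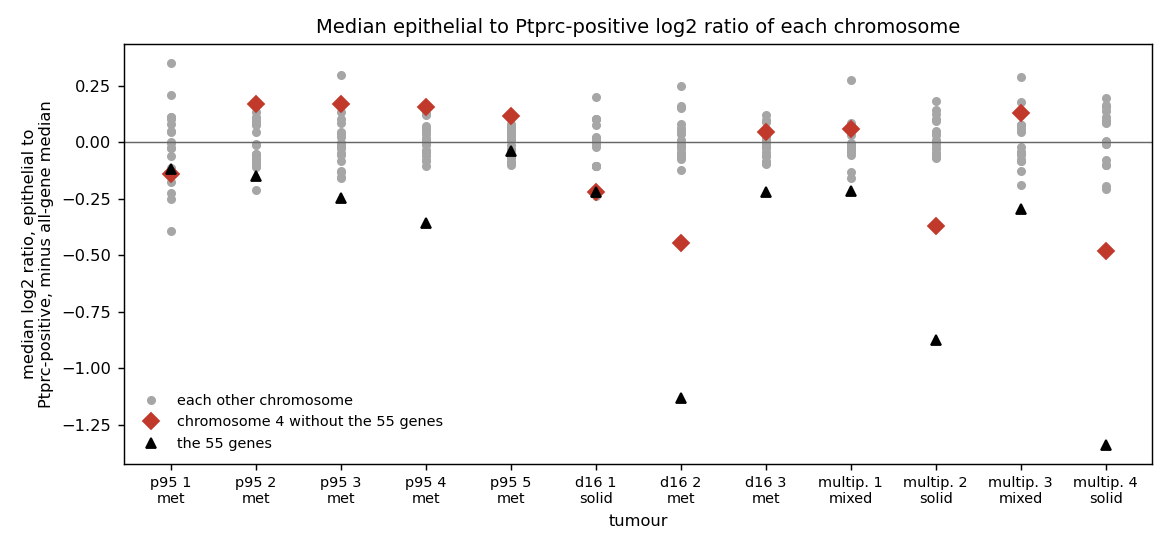
Median epithelial to Ptprc-positive log2 ratio of each chromosome minus the median of all genes (y axis) in each tumour (x axis). Grey points are the other chromosomes, diamonds are chromosome 4 without the 55 genes, and triangles are the 55 genes. Diamonds lie at -0.45, -0.37 and -0.48 in d16 tumour 2 and multiparous tumours 2 and 4.

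All 3 stretches of the chromosome had negative medians in the 3 tumours, a description too because chromosome 4 was picked on this contrast. In d16 tumour 2 the member median was -1.04 in the proximal stretch (10 genes), -1.08 in the middle (8 genes) and -1.41 in the distal stretch (30 genes). In multiparous tumour 2 it was -0.63 (12 genes), -0.87 (8 genes) and -1.05 (32 genes). In multiparous tumour 4 it was -1.94 (6 genes), -0.85 (8 genes) and -1.34 (29 genes). Other chromosome 4 genes had medians of -0.68, -0.32 and -0.38 along the chromosome in d16 tumour 2, of -0.46, -0.29 and -0.37 in multiparous tumour 2 and of -0.75, -0.79 and -0.29 in multiparous tumour 4.

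The conditions of the study were compared on UMIs summed per tumour over epithelial cells, with edgeR's quasi-likelihood test and p-values adjusted over all genes tested. The members and their chromosome had been picked on epithelial values of the same tumours. Counts and medians over either are a description and not independent support. In solid nodular (3) against metaplastic (7) tumours, 48 of the 49 members tested were lower, with a median log2 fold change of -0.88, against 0.02 over all 9797 genes and -0.68 over 537 other genes of chromosome 4. No member passed an adjusted p of 0.05, and 2 genes in all did (0.0204%). The lowest adjusted p of a member was 0.111. At an unadjusted p under 0.05, 23 of 49 members were lower and 0 higher, beside 9.86% and 6.31% of all genes. DESeq2 called 10 of 54 members, all lower, beside 1.68% of its 16453 genes, and limma voom called 0 of 49.

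The 6 members whose solid nodular tumours all lay below all metaplastic tumours (2.74% of all genes did, and 2.6% lay above, among them 0 members) were Txn1, Dvl1, Plin2, Id3, Ece1 and Tpm2. Txn1 was at 444, 390 and 488 CPM in d16 tumour 1 and multiparous tumours 2 and 4, and at 579 to 1343 CPM (median 903) in metaplastic tumours, with d16 tumour 2 the lowest of these. The log2 fold change was -1.30 ± 0.35 (SE; edgeR, adjusted p = 0.142). Dvl1, an intracellular relay of Wnt signals, was at 61.4, 58.7 and 54.3 CPM in the solid nodular tumours and at 105 to 158 CPM (median 114) in the metaplastic ones, a change of -1.22 ± 0.26 (edgeR, adjusted p = 0.111). The 3 solid nodular values of Dvl1 stood close together and all under the metaplastic range.

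Plin2, which coats lipid droplets, was at 205, 198 and 96.3 CPM in the solid nodular tumours and 245 to 619 CPM (median 474) in metaplastic ones. Id3, an inhibitor of basic helix-loop-helix factors, was at 6.83, 27.3 and 14.0 CPM against 28.6 to 147 CPM (median 99.3), so that the groups nearly touched. Ece1 was at 27.3, 21.6 and 15.8 CPM against 34.4 to 166 CPM (median 76.3). Tpm2 had the largest difference of the 6, at 6.83, 10.2 and 14.0 CPM against 29.4 to 513 CPM (median 133). Their log2 fold changes were -1.56 ± 0.40, -2.20 ± 0.57, -2.33 ± 0.53 and -4.26 ± 0.95 (SE). The 2 mixed tumours lay within or above the metaplastic range for these genes, at 841 and 878 CPM for Txn1 and 162 and 180 CPM for Dvl1. Some solid nodular values were near the floor. In d16 tumour 1, multiparous tumour 2 and multiparous tumour 4, Tpm2 had 1, 34 and 8 UMIs. Id3 had 1, 91 and 8 UMIs there, and Ece1 had 4, 72 and 9.

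**Figure D5:**
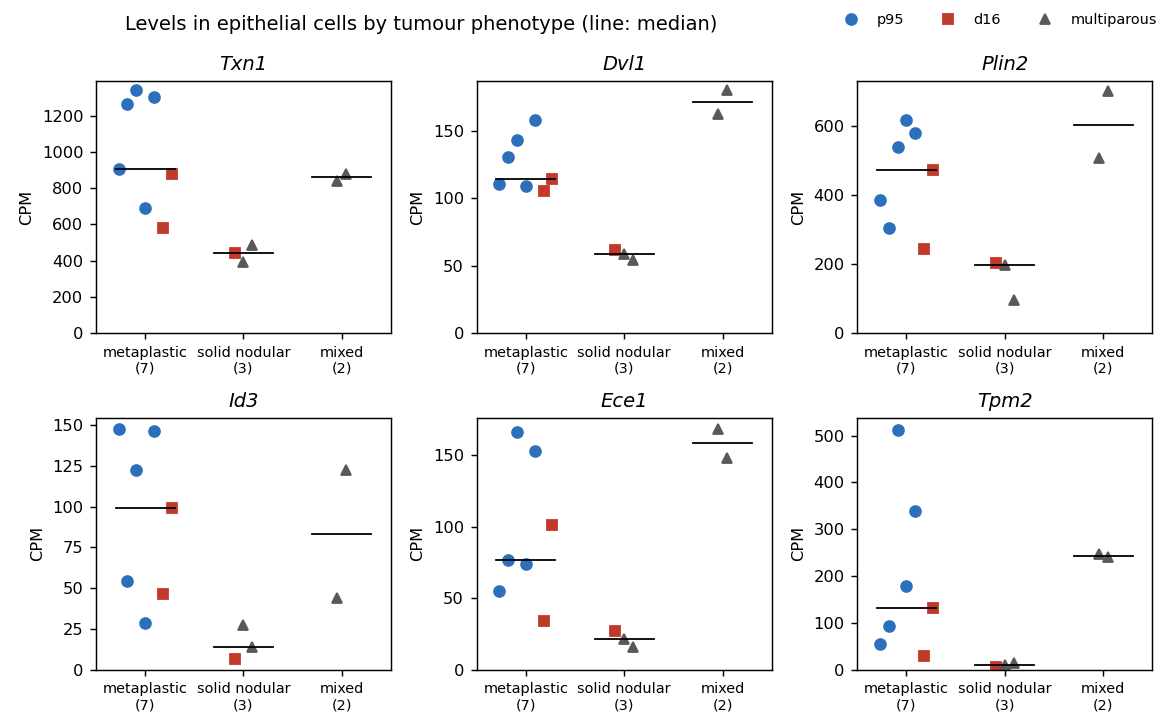
Level in epithelial cells (y axis, CPM, from 0) of the 6 genes without overlap between solid nodular and metaplastic tumours, with 1 point per tumour, shaped by group, and a line at the median. For Txn1 the 3 solid nodular tumours lie between 390 and 488 CPM and the 7 metaplastic ones between 579 and 1343 CPM.

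One metaplastic tumour, d16 tumour 2, sat nearer to the solid nodular ones. It was the lowest metaplastic tumour for Txn1, Dvl1, Plin2, Ece1 and Tpm2. Without it edgeR called 4 members, all lower (120 genes lower, 1.28% of 9411): the log2 fold changes were -2.49 for Ece1 (adjusted p = 0.0277), -4.45 for Tpm2 (0.0291), -1.26 for Dvl1 (0.0401) and -1.66 for Plin2 (0.0461). The 3 solid nodular tumours differed from the metaplastic ones in more than the label: 1 was d16 and 2 were multiparous with an unknown HER2 form, while the metaplastic tumours were 5 p95 and 2 d16, all nulliparous. These factors cannot be told apart here. The 8 epithelial markers summed to 2178, 2254 and 2634 CPM in the solid nodular and to 3942 to 20490 CPM in the metaplastic tumours, and the 12 division markers to 1871, 874 and 1934 CPM against 648 to 1060 CPM. The 8 fibroblast markers summed to 75.1, 1947 and 894 CPM in epithelial cells of the solid nodular tumours and to 110 to 5959 CPM in those of the metaplastic ones. All genes of these lists had UMIs in epithelial cells, and their part in the result was not tested.

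By role, the redox and metabolic members were lower in 10 of 11 tested, beside 48.9% of all genes, with a median of -0.56. At an unadjusted p under 0.05 in edgeR, 5 were lower, beside 9.86% of all genes. The same shares apply to each role below. Members were picked on epithelial values of these tumours, so counts and medians by role are a description. Prdx1 was at 485, 389 and 669 CPM in the solid nodular tumours and 467 to 1102 CPM (median 962) in the metaplastic ones, and these ranges overlapped only through d16 tumour 2. Pgd, of the pentose phosphate pathway that supplies NADPH, was at 68.3, 94.99 and 87.5 CPM against 111 to 302 CPM by library size, a change of -1.49 ± 0.38. With TMM scaling its groups overlapped. Aurkaip1 was the 1 member of the 49 with a positive change.

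Cytoskeletal, traffic and matrix members were lower in 9 of 9, with a median of -1.40. At an unadjusted p under 0.05 in edgeR, 7 were lower, beside 9.86% of all genes. Capzb, which caps actin filaments, was at 47.8, 51.2 and 131 CPM against 127 to 440 CPM. Clta was at 171, 197 and 242 CPM against 212 to 479 CPM, and Marcksl1 at 191, 196 and 278 CPM against 221 to 652 CPM. Tnc ranged most widely, with 6.83, 94.1 and 109 CPM against 55.3 to 1738 CPM (median 1589), and Hspg2 had 0, 53.9 and 40.3 CPM against 10.7 to 185 CPM. Both are matrix genes of fibroblasts, and fibroblast markers in epithelial cells are given above.

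Signalling members were lower in 8 of 8, with a median of -1.12. At an unadjusted p under 0.05 in edgeR, 6 were lower, beside 9.86% of all genes. Cdc42 was at 178, 232 and 312 CPM against 234 to 573 CPM (median 554), and Gnb1, a subunit of heterotrimeric G proteins, at 191, 190 and 340 CPM against 223 to 539 CPM. Ptp4a2, a tyrosine phosphatase of membranes, was at 102, 127 and 207 CPM against 36.8 to 294 CPM. Errfi1 was at 471, 739 and 313 CPM against 229 to 1033 CPM, within the metaplastic range throughout.

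Protein quality control members were lower in 7 of 7, with a median of -0.58. At an unadjusted p under 0.05 in edgeR, 2 were lower, beside 9.86% of all genes. Vcp, an ATPase that extracts damaged proteins, was at 109, 151 and 275 CPM against 276 to 551 CPM, with no overlap by library size and an overlap after TMM scaling. Bag1, a partner of Hsp70, was at 143, 166 and 142 CPM against 151 to 313 CPM, and Dnaja1, another, at 184, 135 and 205 CPM against 164 to 373 CPM. Sdf4 was at 88.8, 102 and 75.3 CPM against 120 to 175 CPM by library size.

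Chromatin and RNA members were lower in 8 of 8, with a median of -0.78. At an unadjusted p under 0.05 in edgeR, 2 were lower, beside 9.86% of all genes. Ybx1, a cold shock protein that binds mRNA, was at 259, 214 and 369 CPM against 180 to 628 CPM, and Sfpq, a paraspeckle protein, at 212, 193 and 322 CPM against 160 to 455 CPM. Arid1a, a subunit of the SWI/SNF remodeller, was at 54.6, 71.6 and 112 CPM against 92.1 to 178 CPM. Ssu72, a phosphatase of RNA polymerase II, was at 68.3, 50.9 and 56.0 CPM against 55.3 to 128 CPM. All 4 pairs of ranges overlapped.

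The remaining groups are small. Transcription factors were lower in 3 of 3 tested (median -1.52). Of them 1, Id3, was lower at an unadjusted p under 0.05 in edgeR, beside 9.86% of all genes. Klf4, a factor of epithelial differentiation, was at 13.7, 59.0 and 249 CPM against 73.0 to 521 CPM. Nfib was at 143, 241 and 205 CPM against 139 to 404 CPM. Cell cycle and DNA members were lower in 3 of 3 (median -0.60), and none at an unadjusted p under 0.05. Nasp, a histone chaperone, was at 54.6, 21.0 and 66.5 CPM against 36.5 to 64.3 CPM, and Nbn, of the double-strand break sensor, at 6.83, 7.19 and 5.25 CPM against 0 to 14.3 CPM. Melk, a kinase of dividing cells, stayed at or under 14.8 CPM in every tumour and, like Ccne2, Stmn1, Hmgn2, Plag1 and Eno1, was too low to be tested.

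In d16 (3) against p95 (5) tumours, 46 of 49 members tested were lower, with a median of -0.61 against -0.003 over 9480 genes. No member and no gene passed in edgeR (0.0%), while 6 members were lower and 0 higher at an unadjusted p under 0.05, beside 1.87% and 2.92% of all genes. DESeq2 called 0 of 54 members and limma voom 0 of 49. The 3 smallest p-values were those of Ugcg, Ccnc, a cyclin of the Mediator complex, and Tpm2. Ugcg was at 27.3, 26.5 and 54.8 CPM in d16 tumours 1, 2 and 3. In p95 tumours 1 to 5 it was at 18.4, 74.6, 97.8, 119 and 82.4 CPM (-1.27 ± 0.45, SE). The p95 tumour 1 values were 1 UMI for Ugcg, below the d16 range, and 3 UMIs for Ccnc. In d16 tumour 1 these genes had 4 and 2 UMIs. Ccnc was at 13.7, 8.59 and 11.8 CPM against 55.3, 13.6, 21.4, 16.7 and 24.7 CPM (-1.05 ± 0.43). It was 1 of 3 members without overlap after TMM scaling, with Dnaja1 and Clta, beside 0.781% of all genes, and 0 members lay above in every d16 tumour, beside 1.66%. All 3 changes had an adjusted p of 0.891 in edgeR.

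The d16 tumours were not alike. The pooled epithelial share from the 55 genes was 0.504, 0.582 and 1.20% in d16 tumours 1, 2 and 3, and 0.803, 1.06, 1.31, 1.24 and 1.35% in p95 tumours 1 to 5. D16 tumour 3 thus lay inside the p95 range and the other two below it. Without d16 tumour 3 the median member change was -1.10 and 20 of 48 members were lower at an unadjusted p under 0.05, beside 8.55% of all genes. Without d16 tumour 1 it was -0.32 and 2 of 49 were, beside 1.26%. With the title number shared by 2 pairs of d16 and p95 tumours as a block, limma voom called 0 of 49 members, and the median was -0.61.

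In multiparous (4) against nulliparous (8) tumours, 40 of 49 members were lower, with a median of -0.21 against 0.03 over 9855 genes. No member passed in edgeR, DESeq2 (54 tested) or limma voom, beside 2 genes (0.0203%) in edgeR, and 2 members were lower and 0 higher at an unadjusted p under 0.05, beside 2.82% and 2.05% (4.87% both ways). No member's groups were apart, beside 0.193% of genes lower and 0.365% higher in every multiparous tumour. Lyn was at 27.2, 13.8, 20.1 and 1.75 CPM in multiparous tumours 1 to 4 and at 20.8 to 61.1 CPM in nulliparous ones (-1.18 ± 0.45, SE). Psmb2, a proteasome subunit, was at 103, 82.4, 135 and 84.0 CPM against 92.1 to 205 CPM (-0.57 ± 0.23), and Nasp changed by -0.57 ± 0.30. Both mixed multiparous tumours had a pooled share of 1.13 and 1.25%, and both solid nodular ones 0.537 and 0.642%. The group thus held tumours of both kinds, and its median moved to -0.05 without tumour 4 and to -0.39 without tumour 3.

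The same comparisons were made in Ptprc-positive cells, in tumours with at least 20 such cells, which left out p95 tumour 1. These cells were not free of epithelial RNA. Of all 952, 163 had 2 or more epithelial marker UMIs, among them 8 of the 20 in d16 tumour 1. No member passed in any of the 3 edgeR fits, with 38 members tested in each. In solid nodular (3) against metaplastic (6) tumours 28 were lower with a median of -0.16, against -0.08 over 4008 genes, 1 gene was called (0.025%), and 5 members were lower at an unadjusted p under 0.05, beside 7.36%, and 0 higher, beside 3.94%. In 5 members every solid nodular tumour lay below every metaplastic one (5.14% of genes), and in 0 above (2.12%). DESeq2 and limma voom called 0 members. Without d16 tumour 1 the median member change was 0.014, against -0.025 over all genes. Ece1 (-1.83 ± 0.52), Ugcg (-1.15 ± 0.37) and Ssu72 (-1.14 ± 0.39) had the smallest p-values, each with an adjusted p of 0.209 to 0.287 in edgeR. Ece1 was at 0, 35.96 and 64.7 CPM in the solid nodular tumours and 72.0 to 251 CPM in the 6 metaplastic ones. With no filter on low counts edgeR called Ece1 and Tnc (86 genes lower, 0.608%).

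In d16 (3) against p95 (4) tumours 29 of 38 were lower in Ptprc-positive cells with a median of -0.23, against -0.05 over 3702 genes (0.0% called), and in multiparous (4) against nulliparous (7) tumours 19 of 38 were lower with a median of 0.03, against 0.02 over 3829 genes (0.0261% called). No member had an unadjusted p under 0.05 in either edgeR fit, beside 1.3% of genes lower and 0.702% higher for the HER2 form, and 2.98% lower and 3.84% higher (6.82% both ways) for parity. DESeq2 (53 members tested) and limma voom (38) called 0 members in both. For the HER2 form 2 members lay lower in every d16 tumour (2.89% of genes did, and 1.3% lay higher). For parity none did, beside 0.366% lower and 0.705% higher. The smallest p-values were those of Plin2 (-0.78 ± 0.41), Ugcg (-0.48 ± 0.32) and Bag1 (-0.55 ± 0.41) for the HER2 form. For parity they were those of Nasp (-0.83 ± 0.41), Thrap3, a splicing and transcription cofactor (0.73 ± 0.36), and Capzb (-0.46 ± 0.26).

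The difference between the 2 populations was itself compared between groups, in 1 edgeR model with the tumour as a block. The members were picked on this difference in the same tumours, so counts and medians over them are a description. For solid nodular (3) against metaplastic (6) tumours, 38 of 48 members had a negative term, with a median of -0.54 against 0.12 over 9001 genes. At an unadjusted p under 0.05, 6 members were negative and 0 positive, beside 434 (4.82%) and 391 of all genes. For the HER2 form the median was -0.22 with 32 of 47 negative. At an unadjusted p under 0.05, 1 member was negative and 0 positive, beside 177 (2.05%) and 123 of 8643 genes. For parity the median was -0.31 with 36 of 47 negative. At that level 3 members were negative and 1 positive, beside 293 (3.34%) and 118 of 8779 genes. The medians over all genes were 0.04 and -0.05. No member passed an adjusted p of 0.05 in any of the 3, with a lowest adjusted p of 0.261, and other tools were not run on this term. Of the 3 solid nodular tumours, d16 tumour 1 entered with 20 Ptprc-positive cells.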

How the data were processed

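Single-cell 3′ libraries of 12 mammary tumours (SureCell WTA 3′ kit, ddSEQ) were deposited by the authors as 1 table of UMI counts per tumour, with 24421 genes. Per the submitters' processing notes, GRCm38 and Seurat 3.0.2 were used. The aligner and the UMI counting settings are not given in the sources used here. The tables hold 0 mitochondrial genes. In 8 of the tables, dates stood in place of 27 gene names, which were taken from the 4 intact tables. Separately, 1708 names were matched to GENCODE M21 after dots were turned into dashes or a leading X was dropped. Positions came from GENCODE M21 (23369 genes).

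A barcode needed 200 or more genes with a UMI to enter, which 7366 of 8486 had. No doublet caller was run, and 163 of 952 Ptprc-positive cells had 2 or more epithelial marker UMIs. Ratios per gene used CPM, minus the median gene, for genes with 10 or more UMIs in the 2 populations of a tumour together. On average 1 UMI was added to each count, scaled in proportion to the total UMIs of its population. UMIs were summed per tumour and population (at least 20 cells for Ptprc-positive and fibroblast-type cells) and fitted in R 4.3.3 with edgeR 4.0.16 (TMM, quasi-likelihood, Benjamini-Hochberg over all genes, 0.05). DESeq2 1.42.0 and limma 3.58.1 were alternatives, and the scripts were tested on simulated data. Intervals are exact at 95% and cover counting error only.

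The members, the gene lists and the role groups were chosen with earlier results of these data known. Named genes are the 3 with the smallest p per fit, up to 4 per role with the most UMIs, the 5 lowest and 5 highest median ratios, and the first and last on the chromosome. Marker lists were epithelial, immune, fibroblast, division, endothelial, pericyte and erythroid. In epithelial cells the 5 endothelial genes summed to 0.716 to 61.1 CPM and the 4 pericyte genes to 18.4 to 105.5 CPM, and 1 of 4 erythroid genes had UMIs (0 to 25.8 CPM).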

Additional observations from a re-analysis of the deposited data

Results flagged for a closer look

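In 120 groups of 4 to 7 tumours, 10 had a highest or lowest tumour set far from the others by Dixon's criterion, which chance does in about 1 of 20 groups. In epithelial cells Bag1 was at 313.1 CPM in p95 tumour 1, against 202.9 CPM in the next highest metaplastic tumour. Ccnc was at 55.26 CPM in the same tumour, against 24.72 CPM in the next highest, both within p95 and within metaplastic tumours. Cdc42 was at 294.7 CPM there, against 541.1 CPM in the next lowest p95 tumour. This tumour gave 54289 epithelial UMIs, the fewest of the 12. Gnb1 was at 223.4 CPM in d16 tumour 2, against 405.2 CPM in the next lowest metaplastic tumour. Dnaja1 was at 135.2 CPM in multiparous tumour 2, against 199.2 CPM in the next lowest multiparous tumour, and Ppt1 was at 21.0 CPM in multiparous tumour 4, against 44.57 CPM. Plag1 was at 0.7188 CPM in multiparous tumour 3 and at 1.03 CPM in p95 tumour 5, the latter both within p95 and within metaplastic tumours, and at 0 in all others.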

How the results depend on the processing

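In solid nodular against metaplastic epithelial cells the count of members called was 0 with edgeR and 10 with DESeq2, and 0 to 4 when each tumour was left out, with 4 without d16 tumour 2. Over all genes edgeR called 2, against 330 with DESeq2, 172 without d16 tumour 2, 19 with 4 or more epithelial marker UMIs, 9 without a low-count filter, 9 with limma voom and 8 with RLE size factors. In Ptprc-positive cells of the same groups 2 members were called without a low-count filter (141 genes, against 1 with it, 49 with DESeq2, 7 with limma voom and 25 without p95 tumour 4), and the median member change ran from -0.555 (without multiparous tumour 4) to 0.014 (without d16 tumour 1). The median for d16 against p95 in epithelial cells ran from -1.103 (without d16 tumour 3) to -0.318 (without d16 tumour 1). Genes called there were 0 with edgeR, 2 with DESeq2 and 1 with the block. For parity they were 2 with edgeR and 9 with DESeq2 in epithelial cells, and 1, 4 and, without a low-count filter, 10 in Ptprc-positive cells. For d16 against p95 in Ptprc-positive cells they were 0, 2 and 41. The causes were not tested.

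Title numbers were shared by 2 pairs of tumours, each of a d16 and a p95 tumour, and the labels do not say what the number marks. With the number as a replicate block in limma voom, 0 members were called in each of the 6 fits, as without it, and the median changes in epithelial cells were -0.614, -0.292 and -0.903 for HER2 form, parity and histology.

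The alternatives included fibroblast-type cells as the reference and, added after seeing the data, Ptprc-positive cells free of epithelial marker UMIs. Over them the log2 ratio of the pooled share ran from -1.01 to -0.74 in d16 tumour 2. It ran from -1.15 to -0.82 in multiparous tumour 2 and from -1.19 to -0.99 in multiparous tumour 4. In the shallow tumours it was negative throughout too, at -0.73 to -0.231 in d16 tumour 1 and -0.787 to -0.047 in p95 tumour 1. The median member ratio ran from -1.447 to -0.998 in d16 tumour 2 and from -1.329 to -0.857 in multiparous tumour 2. In multiparous tumour 4 it ran from -1.623 to -1.007. In d16 tumour 1, with 20 Ptprc-positive and 3 fibroblast-type cells, it ran from -3.18 to 0.26. The 0.26 was the value against the 3 fibroblast-type cells. In p95 tumour 1, with 15 and 7 such cells, the median member ratio ran from -1.06 to -0.04. The cause was not tested.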

Other observations

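Cells that met none of the 3 population rules numbered 1809. In the tumours with low epithelial shares their thinned counts of the 55 genes had a median of 12 UMIs in 74 cells of d16 tumour 2, 9 UMIs in 65 cells of multiparous tumour 2 and 11 UMIs in 30 cells of multiparous tumour 4, nearer to the Ptprc-positive medians of 11, 11 and 13 than to the epithelial ones. In d16 tumour 1 the median was 4.5 UMIs, in 4 cells.

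Shallow and deep epithelial cells of the tumours with low shares both had low values. They are parts of the epithelial shares that named these tumours, so the values are a description. The part of depth was not tested. Below and above the median depth the share of UMIs from the 55 genes was 0.547 and 0.590% in d16 tumour 2, 0.590 and 0.519% in multiparous tumour 2, 0.579 and 0.654% in multiparous tumour 4, and 0.512 and 0.501% in d16 tumour 1. In the other 8 tumours it was 0.792 to 1.23% below and 0.808 to 1.37% above the median depth.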
